A study of Mus musculus with 18 samples.

Results

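The neutrophil granule genes described here are 10 genes, S100a8, S100a9, Ngp, Camp, Ltf, Lcn2, Mpo, Elane, Prtn3 and Ctsg, of 19938 genes measured. They were chosen by name, with earlier results of these data known. Each gene is represented by the probe set that carries a single gene symbol in the platform annotation, taking the brightest where a gene has several, and all 10 members had exactly 1 such probe set. Mpo, Elane, Prtn3 and Ctsg are called early granule genes here and the other 6 late granule genes.

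The samples were end-stage splenic tumours of 18 mice, 1 array per tumour, in 2 groups. Of these, 9 tumours came from Prdm11 knockout (KO) mice and 9 from Prdm11 wild-type (WT) mice. All mice, KO and WT, carried Eμ-Myc, a transgene that puts Myc under the enhancer of the immunoglobulin heavy chain locus and so expresses it in B cells and their precursors. The background strain is labelled C57BL/6, and each tumour came from a different mouse. The labels give no ages and do not say which part of Prdm11 is deleted. The tumours were frozen and homogenised with no sorting described, so that RNA of any other cell in the spleen is part of each sample, and fewer cells of a type and less RNA per cell cannot be told apart. Levels are log2 RMA intensities, differences are KO minus WT, and a level is compared across tumours, not with the level of another gene.

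Neutrophils fill their granules in sequence as they mature in bone marrow and, in mice, also in the spleen. Promyelocytes make the primary (azurophil) granules with myeloperoxidase and the serine proteases, and their transcripts are shut off before the secondary granule proteins lactoferrin, cathelicidin, lipocalin 2 and the neutrophilic granule protein are made in myelocytes and metamyelocytes. S100a8 and S100a9 form calprotectin, a cytosolic complex that remains abundant in mature cells. High early transcripts are therefore known as a mark of granulocyte precursors, and high late transcripts as a mark of maturing and mature cells.

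B lineage markers were looked at first. Of 12 B lineage markers, 11 were measured, and all 11 had a mean level above that of the median gene, the lowest being Cd79a at percentile 68.4. This sets levels of different genes side by side, unlike the comparisons below. By the same measure the granule genes lay at percentiles 52.1 (Elane) to 99.5 (S100a9), so it does not test the labelled tumour type. The mean over these markers ran from 7.66 to 8.73 in KO tumours and from 7.30 to 8.62 in WT tumours. Prdm11 itself ran from 4.87 to 5.49 in KO tumours and from 4.84 to 5.66 in WT tumours, and the means differed by -0.12 (SE 0.12, limma adjusted p = 0.868), so the groups overlapped. Where its probe set lies relative to the deletion is not given. Its signal was also dim, with medians of 5.21 in KO and 5.33 in WT tumours where the array medians ran from 5.14 to 5.38. For both reasons this level does not check the genotype labels. WT tumour 3 was the array least like the others (median Pearson's r over genes 0.924, where the other 17 arrays had 0.957 to 0.975), and results that rest on it are also given without it.

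The same 4 tumours held the 4 highest values of every member. KO tumour 9 and WT tumours 4, 5 and 9 were above the other 14 tumours for all 10 genes. Among all 19938 genes, 63 (0.316%) had these 4 tumours on top, and the members make up 10 of the 63. The set was defined by the members, so their count is a description. The distance to the fifth tumour was small for some genes, 0.04 for Lcn2 and 0.07 for S100a8 on the log2 scale, and wide for others, 0.77 for Camp and 0.94 for Ctsg. After quantile normalization the same 4 tumours led for 9 of 10 genes, the exception being Lcn2, where WT tumour 1 passed KO tumour 9. After median centring they led for all 10. The B lineage list mean was 7.80 in KO tumour 9 and 8.07, 8.21 and 7.86 in WT tumours 4, 5 and 9, inside the range of the other tumours.

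A similar number of tumours in each genotype was high across the set. In 8 tumours, KO tumours 1, 5, 8 and 9 and WT tumours 4, 5, 7 and 9, at least 9 of the 10 genes were above their median over all tumours, 4 of 9 KO and 4 of 9 WT. In the other 10 tumours at most 3 genes were above it. No member was above its median in KO tumours 4 and 7 or in WT tumour 2.

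**Figure D1:**
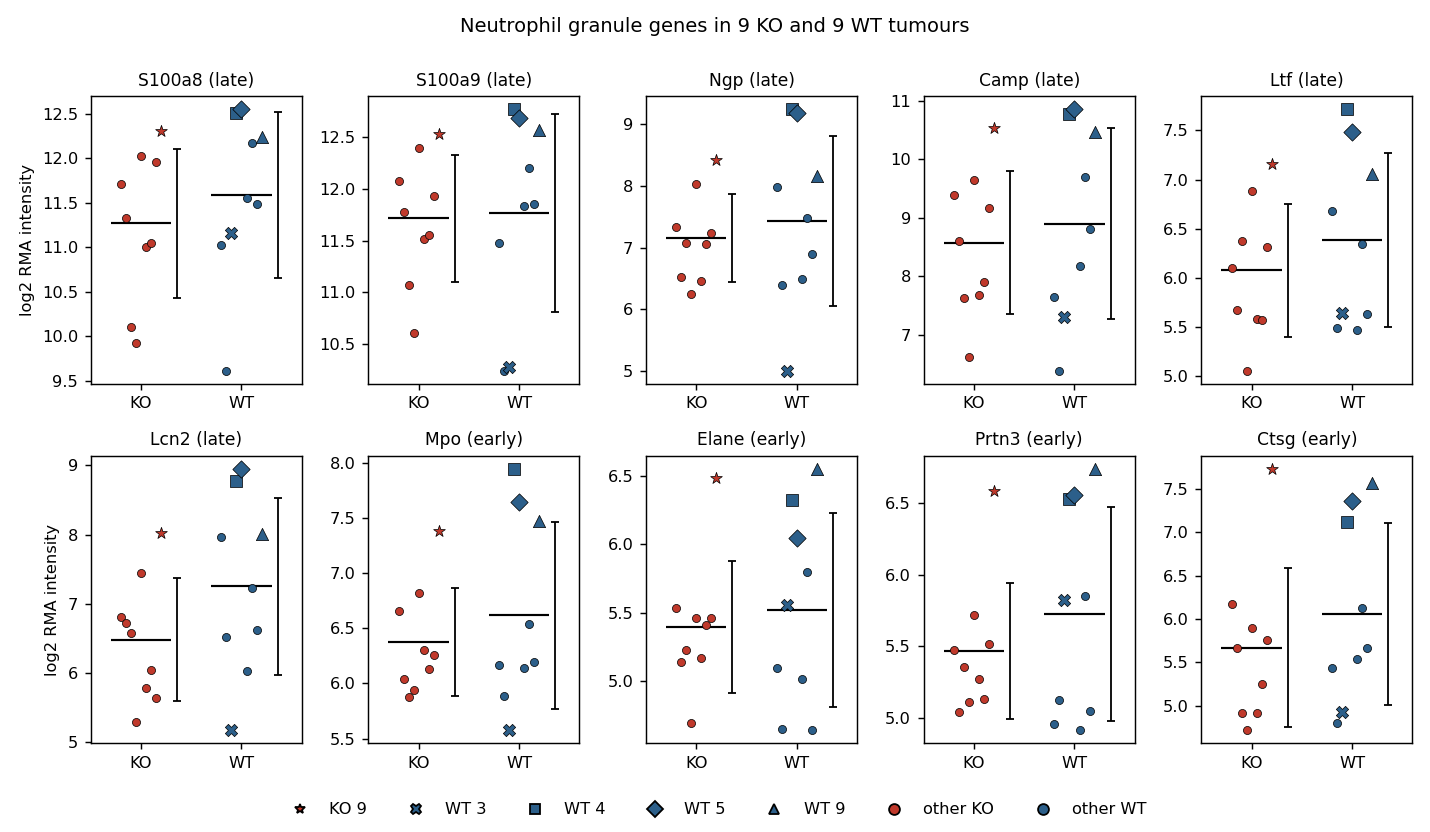
Level of each granule gene in each tumour. The vertical axes are log2 RMA intensity with a scale of their own for each gene, points are single tumours with KO left of WT, horizontal bars are group means and vertical bars are SD (n = 9 each). KO tumour 9 and WT tumours 4, 5 and 9 are the 4 highest in all 10 panels, and the groups overlap in each.

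S100a8 and S100a9, the calprotectin subunits, are adjacent genes on chromosome 3. S100a8 had 9.92, 11.33 and 12.31 (lowest, median, highest) in KO tumours, against 9.62, 11.55 and 12.55 in WT tumours. The lowest values were in KO tumour 4 and WT tumour 2, the highest in KO tumour 9 and WT tumour 5, and the highest tumour was 7.63-fold above the lowest. The mean difference was -0.32 (SE 0.38, 95% interval -1.11 to 0.46, limma adjusted p = 0.889). S100a9 had 10.61, 11.77 and 12.53 in KO tumours, against 10.24, 11.85 and 12.77 in WT tumours, and the means differed by -0.05 (SE 0.34, 95% interval -0.76 to 0.66, limma adjusted p = 0.989). WT tumour 3 stood apart from the other tumours. The S100a9 value minus the S100a8 value, which is compared here across tumours and says nothing of which gene is more abundant, was -0.88 in that tumour and between -0.04 and 0.97 in the other 17.

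Camp encodes cathelicidin, the precursor of the antimicrobial peptide CRAMP, and had the widest range of the members. It had 6.62, 8.60 and 10.54 in KO tumours, against 6.38, 8.80 and 10.86 in WT tumours, and its highest tumour was 22.3-fold above its lowest. Its SD within genotypes, 1.45, lay at percentile 99.9 of all genes. KO tumour 9 and WT tumours 4, 5 and 9 were set off from the others by the largest gap in its values, 9.70 to 10.47, and the groups overlapped throughout, with a difference of -0.32 (SE 0.61, 95% interval -1.60 to 0.95, limma adjusted p = 0.939).

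Ngp, the neutrophilic granule protein, is related to the cathelicidins and lies on chromosome 9, as do Camp and Ltf. Its levels were 6.25, 7.08 and 8.42 in KO tumours, against 5.01, 7.48 and 9.24 in WT tumours. WT tumour 3 was lowest, 1.24 below the next tumour, while 7 of 9 KO tumours were below the WT median. The difference was -0.28 (SE 0.47, 95% interval -1.25 to 0.69, limma adjusted p = 0.928), and leaving out 1 tumour moved it to -0.58 (WT tumour 3) or -0.05 (WT tumour 4).

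Ltf and Lcn2 encode iron-withholding proteins. Lactoferrin binds iron itself, and lipocalin 2 binds the siderophores with which bacteria collect it. Ltf had 5.05, 6.09 and 7.16 in KO tumours, against 5.47, 6.34 and 7.71 in WT tumours, and the means differed by -0.31 (SE 0.34, 95% interval -1.01 to 0.39, limma adjusted p = 0.879). Lcn2 had 5.28, 6.57 and 8.02 in KO tumours, against 5.17, 7.23 and 8.95 in WT tumours. Lcn2 had the largest difference among the members, -0.77 (SE 0.46, 95% interval -1.74 to 0.19, limma adjusted p = 0.785, unadjusted exact permutation p = 0.156), with 7 of 9 KO tumours below the WT median. WT tumours 4 and 5 alone exceeded the highest KO tumour. Lcn2 lies on chromosome 2, as does Prdm11, with 567 measured genes between them.

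Among the early genes, Mpo encodes myeloperoxidase, which makes hypochlorous acid. Mpo had 5.88, 6.25 and 7.38 in KO tumours, against 5.57, 6.20 and 7.94 in WT tumours, and the means differed by -0.24 (SE 0.30, 95% interval -0.86 to 0.38, limma adjusted p = 0.894). Ctsg encodes the chymotrypsin-like protease cathepsin G. Ctsg had 4.72, 5.67 and 7.73 in KO tumours, against 4.80, 5.66 and 7.57 in WT tumours, so that the group medians were nearly equal while the means differed by -0.39 (SE 0.42, 95% interval -1.26 to 0.48, limma adjusted p = 0.879). For Ctsg the 4 leading tumours lay between 7.11 and 7.73, and the next tumour, KO tumour 1, was at 6.17. The lowest Ctsg value of each group, 4.72 and 4.80, was below the array medians, which ran from 5.14 to 5.38. Dim signal therefore limits the lower Ctsg values.

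Elane, neutrophil elastase, and Prtn3, proteinase 3, are related serine proteases and adjacent genes on chromosome 10. Elane had 4.70, 5.41 and 6.49 in KO tumours, against 4.64, 5.56 and 6.55 in WT tumours, and the means differed by -0.12 (SE 0.26, 95% interval -0.66 to 0.42, limma adjusted p = 0.948). Prtn3 had 5.05, 5.36 and 6.58 in KO tumours, against 4.92, 5.82 and 6.74 in WT tumours, and the means differed by -0.26 (SE 0.27, 95% interval -0.82 to 0.30, limma adjusted p = 0.873). In both genes 8 of 9 KO tumours were below the WT median, the exception being KO tumour 9. That median was the value of WT tumour 3 itself, the array least like the others, so the count rests on it. The WT values next to it were 5.10 and 5.80 for Elane and 5.12 and 5.85 for Prtn3. These probe sets were dim, with mean levels of 5.46 for Elane and 5.60 for Prtn3 where the array medians ran from 5.14 to 5.38, so that values in most tumours lie near the middle of the array's signal, and whether the related genes share signal was not tested.

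Promoters are printed for 5 genes. Camp with Ctsg and Elane with Prtn3 are pairs whose levels were closely related over tumours, while Ltf is in neither pair. Other closely related genes, such as S100a9 with Camp, are not all printed. Camp and Ltf represent the late genes and Ctsg, Prtn3 and Elane the early ones. The sequences are the 250 bases before the RefSeq start site on GRCm38.p6, written 5′ to 3′ on the gene's strand. Capitals mark GCAAT, a half-site of C/EBP factors, AGGAAGT, a core site of PU.1, and AACGG, a core site of MYB, each on either strand.
Camp (chr9:109849457-109849706, minus strand): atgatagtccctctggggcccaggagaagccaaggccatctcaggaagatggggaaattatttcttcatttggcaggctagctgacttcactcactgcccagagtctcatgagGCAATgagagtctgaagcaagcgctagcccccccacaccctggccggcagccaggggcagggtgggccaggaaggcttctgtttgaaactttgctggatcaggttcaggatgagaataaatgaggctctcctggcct
Ltf (chr9:111019042-111019291, plus strand): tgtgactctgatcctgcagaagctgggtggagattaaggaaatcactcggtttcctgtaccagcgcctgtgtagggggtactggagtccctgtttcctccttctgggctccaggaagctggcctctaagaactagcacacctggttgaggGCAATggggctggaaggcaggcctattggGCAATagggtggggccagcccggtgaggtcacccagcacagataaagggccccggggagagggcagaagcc
Ctsg (chr14:56102575-56102824, minus strand): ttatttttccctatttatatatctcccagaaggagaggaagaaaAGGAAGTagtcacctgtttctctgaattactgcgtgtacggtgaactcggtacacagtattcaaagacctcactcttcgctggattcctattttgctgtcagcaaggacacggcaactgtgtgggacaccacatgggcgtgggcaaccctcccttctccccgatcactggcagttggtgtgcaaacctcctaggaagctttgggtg
Prtn3 (chr10:79879417-79879666, plus strand): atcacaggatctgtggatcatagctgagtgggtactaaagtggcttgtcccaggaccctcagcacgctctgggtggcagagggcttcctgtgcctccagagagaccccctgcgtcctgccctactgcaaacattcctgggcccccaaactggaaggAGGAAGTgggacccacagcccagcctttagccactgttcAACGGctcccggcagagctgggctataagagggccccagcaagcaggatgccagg
Elane (chr10:79886062-79886311, plus strand): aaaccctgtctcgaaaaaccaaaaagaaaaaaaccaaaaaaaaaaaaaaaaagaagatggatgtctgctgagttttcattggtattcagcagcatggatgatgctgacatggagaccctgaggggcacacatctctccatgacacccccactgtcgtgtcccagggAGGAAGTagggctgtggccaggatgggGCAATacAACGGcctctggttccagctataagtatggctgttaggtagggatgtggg

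C/EBP factors, PU.1 and MYB are known regulators of granulocyte genes, and these short words were chosen after the promoters had been read. All 10 members matched a promoter. GCAAT lay in the promoters of 6 of 6 late and 2 of 4 early genes (Mpo and Elane), against 23.1% of all 32851 promoters in the table. AGGAAGT lay in 4 of 4 early genes and 1 of 6 late genes (S100a8), against 7.69% of all promoters. AACGG lay in 2 of 4 early and 0 of 6 late genes, against 14.5% of all promoters. In the adjacent Prtn3 and Elane genes AGGAAGT began 94 and 84 bases before the start site and AACGG 55 and 50 bases before it. Elane alone of these 2 also held GCAAT, 57 bases before the start site. In Ltf GCAAT occurred 2 times, 100 and 71 bases before the start site. A match is a description of letters and shows no binding.

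Between genotypes, 0 of the 10 members passed an adjusted p of 0.05 in limma, as against 1 of all 19938 genes (0.00502%). At an unadjusted p below 0.05 in the fit over all tumours, 0 members were lower in KO tumours, where 3.87% of all genes were, and 0 were higher, where 2.83% were. All 10 differences were below 0, as were 59.2% of all genes. Unadjusted two-sided exact permutation p for the members ran from 0.156 (Lcn2) to 0.894 (S100a9). Without 1 of KO tumours 3 and 4 or WT tumours 4, 5, 7 and 9 the S100a9 difference turned above 0, to at most 0.087, and without WT tumour 9 the Elane difference turned to 0.0070. The other 8 differences stayed below 0 with any 1 tumour left out, but most moved by over 1.5 times. S100a8 was at -0.57 when WT tumour 2 was left out and at -0.15 when KO tumour 4 was, and Camp ran from -0.64 (without WT tumour 2) to -0.08 (without WT tumour 5). Mpo ran from -0.37 (without WT tumour 3) to -0.07 (without WT tumour 4), and Ltf from -0.45 (without KO tumour 9) to -0.14 (without WT tumour 4). Without KO tumour 9 Ctsg was at -0.65 and Prtn3 at -0.40, and without WT tumour 9 they were at -0.20 and -0.13. Lcn2 ran from -1.03 (without WT tumour 3) to -0.56 (without WT tumour 5). Its unadjusted limma p was 0.026 without WT tumour 3 and 0.047 without KO tumour 9 (limma adjusted p = 0.825 and 0.726). With any other single tumour left out its unadjusted limma p was above 0.05. The members share their leading tumours, of which 1 was a KO tumour and 3 were WT tumours, so the 10 signs are not separate observations. The median difference was -0.32 for the 6 late genes and -0.25 for the 4 early genes, beside -0.03 for all genes. The intervals reach at least 0.66 below 0 for each member and at most 0.95 above it. In the same tumours the 11 measured erythroid genes had a median difference of -0.68, and the 11 measured B lineage genes one of 0.19. The part of these in the granule differences was not tested.

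**Figure D2:**
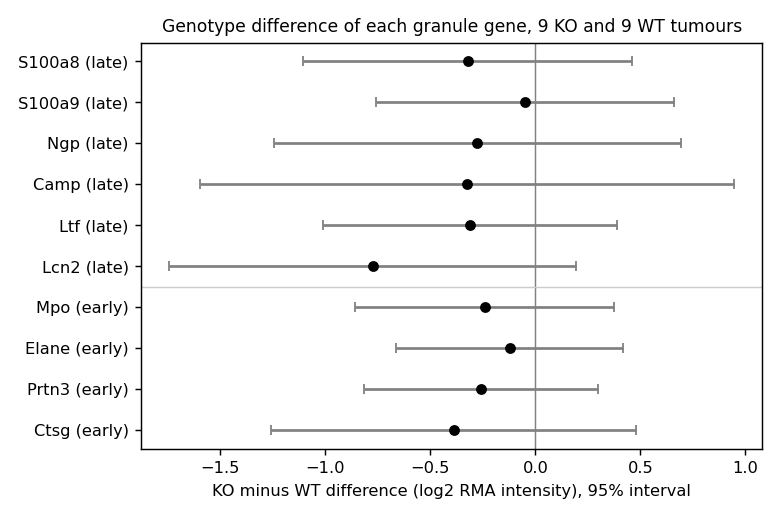
KO minus WT difference of each granule gene on the log2 RMA intensity scale, with the 95% interval of the limma fit (9 KO and 9 WT tumours). All 10 points lie below 0, and all 10 intervals include 0.

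Early and late genes were compared tumour by tumour after each gene was centred on its mean over the 18 tumours. The uncentred mean of the late genes averaged 8.54 ± 0.77 in KO tumours and 8.89 ± 1.09 in WT tumours (SD, n = 9 each), a difference of -0.34 (SE 0.44). The mean of the early genes averaged 5.73 ± 0.57 in KO tumours and 5.98 ± 0.80 in WT tumours (SD, n = 9 each), a difference of -0.25 (SE 0.33). The early minus late value averaged 0.05 ± 0.34 in KO tumours and -0.05 ± 0.50 in WT tumours (SD, n = 9 each), a difference of 0.09 (SE 0.20). Both groups lay across 0, from -0.57 to 0.69 in KO tumours and from -0.52 to 0.91 in WT tumours. The highest early minus late value, 0.91, was that of WT tumour 3, and without it the genotype difference was 0.21. These are descriptions, since the members were chosen with results of these data known.

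The mean of the early genes set 4 tumours apart, and the mean of the late genes left a smaller step below the same tumours. On the early mean, KO tumour 9 and WT tumours 4, 5 and 9 lay between 6.90 and 7.08, and the next tumour, WT tumour 7, lay at 6.08. On the late mean the same 4 tumours lay between 9.75 and 10.30, above KO tumour 5 at 9.40 and WT tumour 7 at 9.19. WT tumours 4 and 5 were the top pair for all 6 late genes and for Mpo. KO tumour 9 and WT tumour 9 were the top pair for the other 3 early genes, Elane, Prtn3 and Ctsg. Their centred early minus late values were 0.08 in KO tumour 9 and 0.19 in WT tumour 9, against -0.46 in WT tumour 4 and -0.52 in WT tumour 5.

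Other tumours were higher on late than on early genes. KO tumour 5 had a centred late mean of 0.69 with an early mean of 0.12. WT tumour 1 had a centred late mean of 0.08 and an early mean of -0.44, and its late genes were split. Its Lcn2 and Ngp were 7.97 and 7.99, the fifth highest Lcn2 of all, while its S100a8 of 11.03 and Camp of 7.64 were below the WT medians. Averaged after centring, Ngp, Ltf and Lcn2 exceeded S100a8, S100a9 and Camp by 1.34 in WT tumour 1, 1.23 in WT tumour 2 and 0.91 in KO tumour 3. The opposite order was clearest in KO tumour 8, at -0.78, and in WT tumour 6, at -0.68. WT tumours 1 and 2 and KO tumour 3 also had high erythroid list means, 7.97 in KO tumour 3, the highest of the KO tumours, and 9.21 and 8.38 in WT tumours 1 and 2, the highest of the WT tumours, though WT tumour 6 had 8.36. KO tumour 7 had nearly the erythroid mean of KO tumour 3, 7.94, and a split of the late genes of -0.10. The part of erythroid RNA in this order was not tested. This division of the late genes was chosen after their values were seen and has no test.

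**Figure D3:**
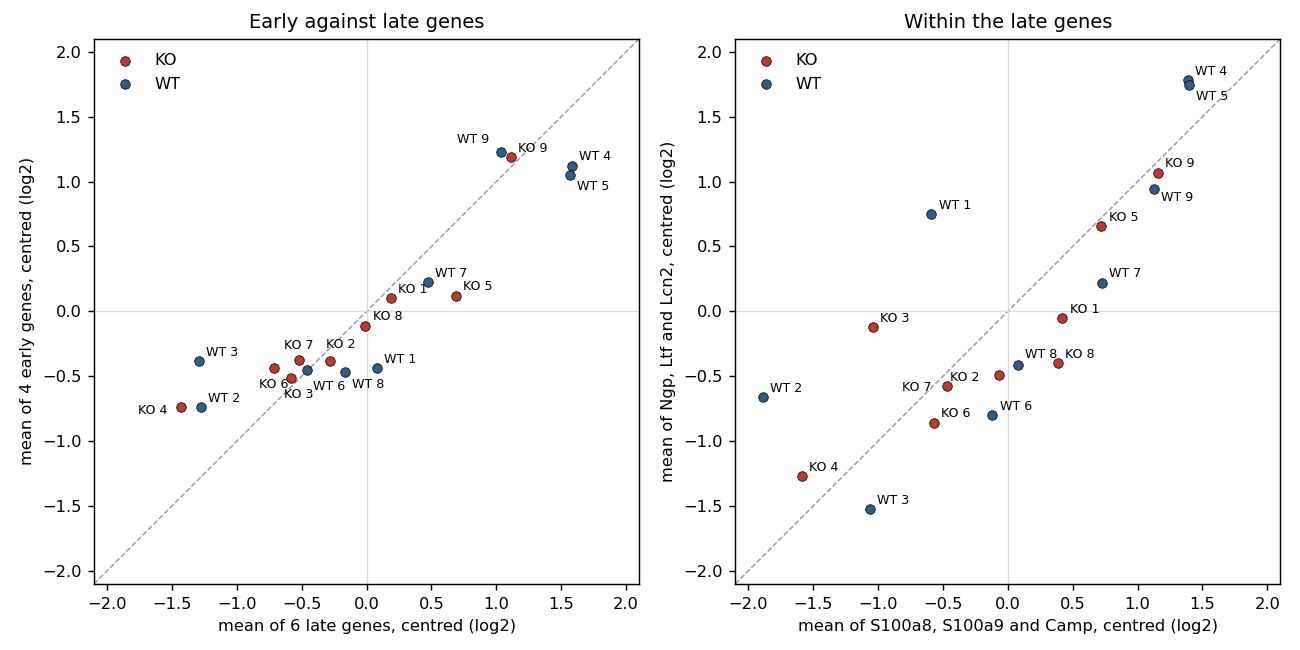
Left, the mean of the 4 early genes against the mean of the 6 late genes, and right, the mean of Ngp, Ltf and Lcn2 against that of S100a8, S100a9 and Camp, each gene centred on its mean over 18 tumours (log2 units). Points are tumours (KO red, WT blue) and the dashed line marks equal values. WT tumours 4 and 5 lie below the line on the left and WT tumour 1 lies 1.34 above it on the right.

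Late genes varied together over the 18 tumours. Pearson's r ran from 0.61 (S100a8 and Lcn2) to 0.94 (S100a9 and Camp) over the 15 pairs, and Spearman's rho from 0.70 to 0.99. All 15 had an adjusted permutation p of at most 0.0066 for r, adjusted over the 45 pairs of members. With the 2 tumours farthest from the median of the first gene left out, r ran from 0.61 to 0.97. Within KO tumours alone r ran from 0.62 to 0.97, with 14 of 15 pairs past an adjusted exact permutation p of 0.05, and within WT tumours from 0.58 to 0.99, with 13 of 15.

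Because 4 tumours form a cluster of their own on the early genes, pairs that include an early gene are given over the other 14 tumours. The plan was to use all 18 tumours. Those 4 were left out after the values were seen, and they are the highest for every member. Leaving them out narrows the range of the values compared, so r and p over the 14 describe that subset only. Ctsg, dim in its lowest tumours, varied with Camp, S100a9 and S100a8 there. Its r was 0.94 with Camp (rho 0.95, adjusted permutation p = 0.00022, and r 0.93 without the 2 farthest tumours). With S100a9 it was 0.88 (rho 0.92, adjusted permutation p = 0.00022, and r 0.90 without them). With S100a8 it was 0.87 (rho 0.93, adjusted permutation p = 0.00027, and r 0.83 without them). Mpo also varied with some members. Its r was 0.86 with S100a9, 0.80 with Camp and 0.78 with Ctsg (adjusted permutation p = 0.0012, 0.0028 and 0.0035). With Ngp and S100a8 it was 0.76 and 0.67 (adjusted permutation p = 0.0049 and 0.024). With Ltf, Lcn2, Elane and Prtn3 it was 0.56, 0.55, 0.40 and 0.29 (adjusted permutation p = 0.077, 0.077, 0.2 and 0.37). Elane and Prtn3 had r 0.78 (rho 0.85, adjusted permutation p = 0.0049, and r 0.70 without the 2 farthest tumours). Of the 3 words searched, the promoters of Elane and Prtn3 share AGGAAGT and AACGG, those of Ctsg and S100a8 share AGGAAGT, and those of Ctsg and Camp share none. Ctsg and Prtn3 also share AGGAAGT and had r 0.30 (adjusted permutation p = 0.35). Whether shared words bear on these levels was not tested. Prtn3 had r of 0.02 with Ngp, 0.14 with S100a9 and -0.02 with Lcn2, with adjusted permutation p of 0.96, 0.68 and 0.95. These 3 values rest in part on WT tumour 3, where Prtn3 was 5.82 and Ngp 5.01. Without it they were 0.52, 0.49 and 0.22, with adjusted permutation p of 0.092, 0.11 and 0.46. With the leading tumours included, the 3 values within KO tumours were 0.89, 0.70 and 0.75 (adjusted exact permutation p = 0.0025, 0.033 and 0.016), and within WT tumours 0.57, 0.58 and 0.59 (adjusted exact permutation p = 0.11, 0.11 and 0.10). The values within WT tumours include WT tumour 3 and were not computed without it. Over the 17 tumours of both genotypes without WT tumour 3, the leading tumours included, r was 0.83, 0.74 and 0.75. Over all 18 tumours r was 0.66, 0.61 and 0.66 (adjusted permutation p = 0.003, 0.0077 and 0.0031).

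In all, 9 of 24 early and late pairs, 2 of 6 early pairs and 7 of 15 late pairs were past an adjusted permutation p of 0.05 over the 14 tumours. Without WT tumour 3 the counts were 12 of 24, 5 of 6 and 6 of 15. Over all 18 tumours, where the distance of the 4 leading tumours from the rest enters each value, 24 of 24, 6 of 6 and 15 of 15 were past it. The late pairs differed widely in r over the 14 tumours. S100a9 and Camp had r 0.92 and Ngp and Lcn2 had r 0.80, while S100a8 and Lcn2 had r 0.27 (rho 0.36, adjusted permutation p = 0.39). All points share the arrays' common RMA scaling.

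**Figure D4:**
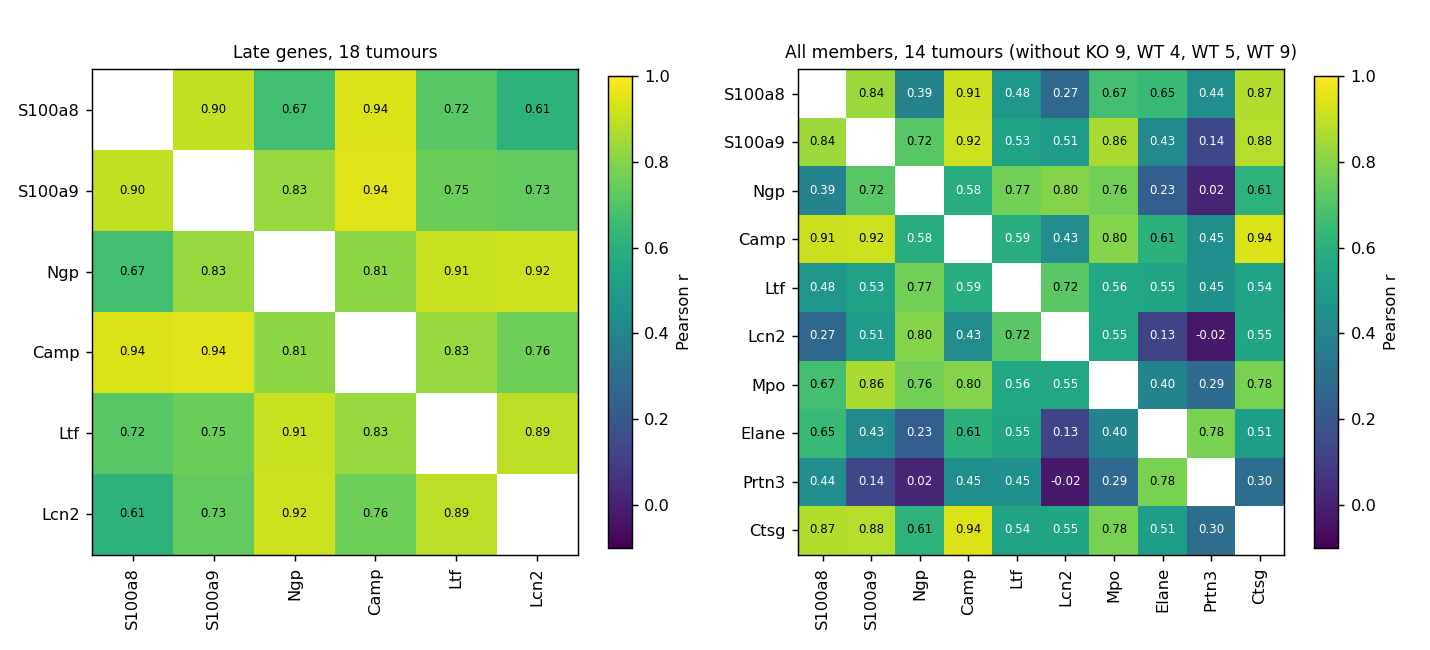
Pearson's r between granule genes over tumours, for the late genes in 18 tumours (left) and for all members in the 14 tumours other than KO tumour 9 and WT tumours 4, 5 and 9 (right). Camp and Ctsg reach 0.94 on the right, where Prtn3 has -0.02 with Lcn2.

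Several genes known from granulocytes were among those most like the members. By Pearson's r over 18 tumours to the late mean, the 8 nearest genes outside the members were Chil3, Ifitm6, Retnlg, Trem3, Pglyrp1, Clec4a2, Clec4e and Ms4a3, with r between 0.96 and 0.86. Chil3, the chitinase-like protein Ym1 of mouse myeloid cells, had r 0.96 within KO tumours and 0.97 within WT tumours. To the early mean the nearest were Ms4a3, Trem3, Chil3, Clec5a, Ceacam10, Prg2, Orm1 and Ly6a2, with r between 0.95 and 0.88. Ms4a3, a membrane protein of granulocyte and monocyte progenitors, had r 0.97 within KO tumours and 0.94 within WT tumours. Over the 14 tumours without the 4 leading ones, r to the early mean ran from 0.34 (Ly6a2) to 0.73 (Chil3). No p is given, since these were the highest of all genes.

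Further genes of the granulocyte programme, listed by stage, followed the members in part. Of 16 other primary granule and promyelocyte genes, Ms4a3, Fcnb and Clec5a had their 4 highest values in the same 4 tumours as the members. Of 24 measured secondary and tertiary granule genes, Chil3, Hp, Pglyrp1, Anxa1, Ifitm6 and Orm1 did, and of 21 mature neutrophil genes Ly6g, Trem3, Clec4e and Il1r2 did. These shares compare with 0.316% of all genes. Ms4a3 had 8.28 in KO tumour 9 and 8.43, 8.44 and 8.72 in WT tumours 4, 5 and 9, and at most 6.75 in the other 14. Among 15 progenitor, 12 monocyte, 15 macrophage, 11 erythroid and 11 T cell genes measured, 0 had these 4 tumours on top. Of 14 eosinophil, basophil and mast cell genes, Prg2, the major basic protein of eosinophils, did, with 9.15 in KO tumour 9 and 8.29, 7.69 and 7.53 in WT tumours 4, 5 and 9. The mean over these 14 genes also had the same 4 tumours on top, with 5.60 in KO tumour 9 and 5.99, 5.67 and 5.28 in WT tumours 4, 5 and 9, where the list ran from 4.65 to 5.60 in KO tumours and from 4.81 to 5.99 in WT tumours. Its part in the member values was not tested. Prg2 was the only measured gene of this list with these 4 tumours on top, although the list mean had them there. Epx and Siglecf, 2 defining eosinophil genes chosen after their values were seen, were among those that did not.

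The mean over the 21 mature neutrophil genes was 5.84 in KO tumour 9 and 6.47, 6.29 and 5.74 in WT tumours 4, 5 and 9, and KO tumour 6, at 5.74, was among the 4 highest in place of WT tumour 9. Single genes, chosen after their values were seen, differed among the 4 leading tumours. Cxcr2, the chemokine receptor by which mature neutrophils leave the marrow, had 5.80 in KO tumour 9 and 7.89, 7.75 and 5.95 in WT tumours 4, 5 and 9, while another KO tumour reached 7.19. Mmp8, neutrophil collagenase, had 5.70 in KO tumour 9 and 6.95, 6.87 and 5.27 in WT tumours 4, 5 and 9. Ly6g, the surface marker of mouse neutrophils, had 5.93 in KO tumour 9 and 6.72, 6.38 and 4.91 in WT tumours 4, 5 and 9, and at most 4.89 in the other 14. WT tumours 4 and 5 had the highest values of these 3 genes, and WT tumour 9, the highest for Elane and Prtn3, lay inside the range of the other 14 tumours for Cxcr2 and Mmp8. Other neutrophil markers differed in range. Retnlg ran from 6.64 to 8.88 in KO tumours and from 6.11 to 10.45 in WT tumours. Chil3 ran from 5.17 to 8.86 in KO tumours and from 4.63 to 9.02 in WT tumours. By contrast, Csf3r and Mmp9 were dim and narrow in range. Csf3r, the G-CSF receptor, averaged 4.55 ± 0.23 in KO tumours and 4.68 ± 0.22 in WT tumours, and Mmp9, gelatinase B, averaged 5.11 ± 0.21 in KO tumours and 5.18 ± 0.30 in WT tumours (SD, n = 9 each). Monocyte and T cell genes were also high in WT tumours 4 and 5. The T cell list mean was 5.56 in KO tumour 9 and 7.01, 6.77 and 5.65 in WT tumours 4, 5 and 9, in ranges of 5.01 to 7.34 over KO tumours and 5.40 to 7.08 over WT tumours. The monocyte list mean was 5.94 in KO tumour 9 and 6.90, 6.83 and 6.09 in WT tumours 4, 5 and 9, in ranges of 5.58 to 6.77 over KO tumours and 5.57 to 6.90 over WT tumours, and the part of either list in the member values was not tested.

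**Figure D5:**
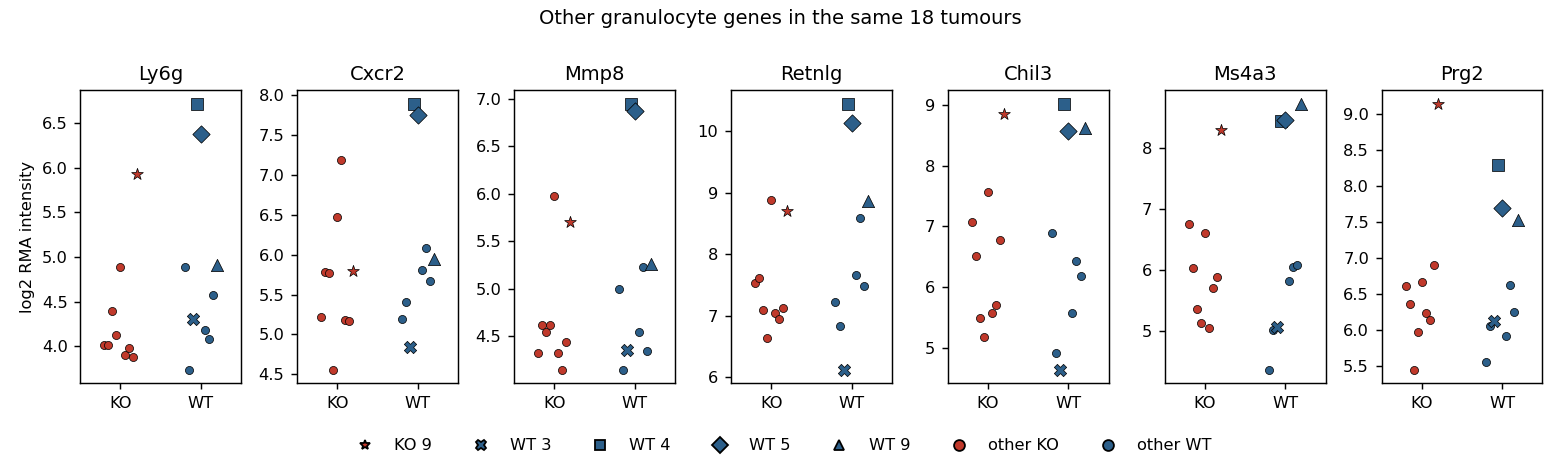
Levels (log2 RMA intensity, a scale of its own for each gene) of 7 granulocyte genes outside the members in each tumour, KO left of WT. For Ms4a3, KO tumour 9 and WT tumours 4, 5 and 9 stand above 8.2 and the other 14 tumours below 6.8, whereas for Cxcr2 and Mmp8 WT tumours 4 and 5 stand apart from KO tumour 9 and WT tumour 9.

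Between genotypes, none of these lists had a member past the adjusted threshold of limma. Of the other primary granule genes 14 of 16 had differences below 0, of the secondary and tertiary granule genes 23 of 24, and of the mature neutrophil genes 20 of 21, with median differences of -0.13, -0.16 and -0.21. The share below 0 over all genes was 59.2%, and the signs within a list are not separate observations. At an unadjusted p below 0.05 the counts lower in KO tumours were 1 of 16, 4 of 24 and 1 of 21, beside 3.87% of all genes, and 0 were higher in each. Wfdc21, a whey acidic protein family gene, averaged 8.85 ± 0.71 in KO tumours and 9.98 ± 1.27 in WT tumours (SD, n = 9 each), differing by -1.14 (SE 0.43, limma adjusted p = 0.699). Padi4, the histone deiminase of neutrophil extracellular traps, differed by -0.27 (SE 0.10, limma adjusted p = 0.699). Cebpa, the transcription factor that starts granulocyte differentiation, had -0.26 (SE 0.12, limma adjusted p = 0.729), and Myb, which is expressed in B lineage precursors as well as myeloid progenitors, had 0.49 (SE 0.25). Acod1, which makes itaconate, had -0.21 (SE 0.09) and Fgr, a Src family kinase of myeloid cells, had -0.27 (SE 0.13).

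Of 13 measured receptors, partners and inhibitors of the granule proteins, 11 had differences below 0, as did 59.2% of all genes. At an unadjusted p below 0.05 in limma 2 were lower in KO tumours, where 3.87% of all genes were, and 0 were past the adjusted threshold. Slpi, an inhibitor of elastase and cathepsin G, averaged 6.49 ± 0.51 in KO tumours and 6.94 ± 0.42 in WT tumours (SD, n = 9 each), differing by -0.46 (SE 0.20, limma adjusted p = 0.721). Cd36, a scavenger receptor that takes up fatty acids bound to calprotectin, had -0.63 (SE 0.29). Serpinb1a, the intracellular inhibitor of the same proteases, had -0.42, and Ctsc, which activates the granule serine proteases by removing their amino-terminal dipeptide, had -0.17. None of these genes had the members' 4 leading tumours on top.

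The lists of other cell types also had 0 genes past the adjusted threshold of limma. Differences were below 0 for 11 of 12 monocyte, 13 of 15 macrophage, 12 of 14 eosinophil, basophil and mast cell, 9 of 11 T cell and 10 of 15 progenitor genes measured, with medians of -0.16, -0.21, -0.07, -0.21 and -0.06. Of all genes, 59.2% were below 0, and genes of a list share tumours, so their signs are not separate observations. All 11 erythroid genes measured were below 0, and 6 of them were lower in KO tumours at an unadjusted p below 0.05, where 3.87% of all genes were, among them Klf1, an erythroid transcription factor, at -0.68, and Rhd, a blood group antigen, at -0.81. Of the 11 B lineage genes measured 9 were above 0, and 5 were higher in KO tumours at an unadjusted p below 0.05, where 2.83% of all genes were. Pax5, the transcription factor of B cell identity, differed by 0.57, and Vpreb3, a B cell precursor gene, by 0.84.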

How the data were processed

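Per the submitters' processing notes the authors used RMA, and what they deposited for the 18 Affymetrix arrays are linear intensity values, 1 per probe set. The sources used here name neither a genome build nor a version of RMA. The planned design took the deposited values to be log2, so they were first transformed to log2, with no pseudocount. No array duplicated another (0 of 153 pairs). Of 35556 probe sets, 21789 had a single symbol in the platform annotation, 1621 had several and 12146 had none, and they gave 19938 genes. The number of arrays limits the precision.

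Genes were compared with limma 3.58.1 (R 4.3.3; lmFit and eBayes, no covariate, no filter), adjusted by Benjamini-Hochberg over all genes. On simulated data of 9 KO and 9 WT tumours and 19938 genes, the fit recovered 66.2% of genes changed 1.5-fold, 87.6% changed 2-fold and 98.5% changed 3-fold, with 5.62% of calls false. The changed genes were drawn at random from all genes, whose median SD within genotypes was 0.25. The members' SDs within genotypes ran from 0.61 (Elane) to 1.45 (Camp), so these shares do not hold for them. Pairs of members were compared by two-sided permutation with 100000 resamples, or all orders within a genotype, in Python 3.11.15 with numpy 2.4.6 and scipy 1.17.1, and adjusted over 45 pairs. Member and list choices were made with earlier results of these data known. Named list genes are the 2 of smallest p per list, and likeness names the 8 nearest genes, unannotated clones passed over. Mature-marker, eosinophil, inhibitor and split-tumour examples were chosen after their values were seen. Alternatives covered scaling, probe sets, dim genes, left-out tumours, variance model and array weights. Promoters came from RefSeq.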

Additional observations from a re-analysis of the deposited data

Results flagged for a closer look

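KO tumour 9 stood apart from the other 8 KO tumours on the early granule genes. Its values were 6.49 for Elane, 6.58 for Prtn3, 7.73 for Ctsg and 7.04 for the mean of the 4 early genes, each separated from the next KO tumour by more than the share of the group's range that Dixon's criterion allows. Of 26 groups of 9 tumours examined, 4 were marked in this way, all by KO tumour 9, and chance marks about 1 in 20 groups. The 4 measures share tumours and, for the mean, genes, so they are not separate observations.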

How the results depend on the processing

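The number of members past the adjusted threshold was 0 in all 25 alternative limma fits, whose smallest adjusted p among members was 0.463 for Lcn2 with array weights. Of the 10 differences, 8 kept their direction in every alternative. S100a9 turned to 0.030 without KO tumour 3, 0.087 without KO tumour 4, 0.074 without WT tumour 4, 0.064 without WT tumour 5, 0.0034 without WT tumour 7 and 0.049 without WT tumour 9, within a range of -0.24 to 0.087 over left-out tumours, and Elane turned to 0.0070 without WT tumour 9, within -0.26 to 0.0070. The difference of the late mean ran from -0.53 to -0.17, that of the early mean from -0.42 to -0.12 and that of early minus late from 0.01 to 0.21 with single tumours left out. The median r of late pairs was 0.59 over 14 tumours, against 0.83 over 18, and that of early pairs was 0.69 without WT tumour 3, against 0.45 over all 14. Both settings were chosen after seeing the data, and the cause was not tested. Under quantile normalization 15 of 24 early and late pairs passed over 14 tumours, against 9. Replicate numbers do not pair the tumours. Same-numbered tumours' deviations correlated between -0.23 and 0.49, and 1 of 9 KO tumours correlated best with its own number. With the number as a replicate block, 0 members passed and the Lcn2 difference was -0.77. Dim signal limits Elane and Prtn3, and also the lower values of Ctsg and Ltf.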
